A study of Homo sapiens with 24 samples.

Results

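Loss of YAP1 was compared between 2 EGFR-mutant lung adenocarcinoma lines, HCC4006 and PC9, under the solvent DMSO alone. The quantity described is an interaction: the YAP1 KO minus CTRL difference in HCC4006 minus the same difference in PC9, on log2(FPKM + 1). FPKM is fragments per kilobase of transcript, scaled by mapped fragments. A positive interaction means that the knockout difference was higher in HCC4006 than in PC9, and a negative one that it was lower in HCC4006. The comparison rests on 12 of the 24 libraries of the study, and on the 11845 of 25365 gene rows that reached FPKM 1 in 3 or more libraries of each line. By its title the study is about dormancy that treatment induces in tumor cells and the part of YAP in it, and the DMSO dishes are the state without drugs.

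The groups were HCC4006 YAP1 KO, HCC4006 CTRL, PC9 YAP1 KO and PC9 CTRL, with 3 dishes each, and all 4 had spent 24 hours in DMSO. Both lines are established cell lines grown in RPMI-1640 with serum. The deposited columns carry 1 knockout name per line, and the labels do not say whether a knockout culture is 1 clone or a pool. Line and knockout culture therefore cannot be told apart. The p-values measure the spread between dishes of the same culture and treatment, pooled over all 8 groups of the study, drug-treated dishes included. The other 12 libraries, from cells treated with osimertinib at 100 nM and trametinib at 30 nM (OT), entered the same fit and gave a second interaction from separate dishes.

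YAP1 is a transcriptional coactivator that has no DNA-binding domain and acts through TEAD factors on promoters and enhancers. The Hippo kinases LATS1 and LATS2 phosphorylate it and hold it in the cytoplasm, and its paralog TAZ, encoded by WWTR1, can act in its place. YAP1 target genes are known for roles in cell adhesion, matrix production, cytoskeletal tension and proliferation. In EGFR-mutant lung cancer YAP1 is known for helping cells to survive EGFR inhibition.

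YAP1 mRNA fell in both lines. It was at 4.24, 4.59 and 3.90 FPKM in HCC4006 YAP1 KO dishes, against 18.5, 16.5 and 19.7 FPKM in HCC4006 CTRL dishes. In PC9 dishes it stood at 12.2, 12.4 and 11.6 FPKM in YAP1 KO dishes, against 43.3, 42.5 and 42.9 FPKM in CTRL dishes. The groups did not overlap in either line, and the knockout means were 23.3% of CTRL in HCC4006 and 28.1% in PC9. The log2 difference was -1.88 in HCC4006 and -1.75 in PC9. The interaction of YAP1 itself was -0.13 with an SE of 0.094 (limma, adjusted p = 0.334). The transcript level does not say how much YAP1 protein was left.

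Replicates of a DMSO group correlated at 0.984 to 0.990 across genes. Absolute depth is unknown, because the files give FPKM. The relative depth, the ratio most often found between the smallest values of low genes in 2 libraries, was 1.14 to 1.2 in HCC4006 YAP1 KO, against 0.952 to 0.975 in HCC4006 CTRL. It was 0.957 to 1.17 in PC9 YAP1 KO, against 0.982 to 1.01 in PC9 CTRL. The part of depth in the results was not tested. In such bulk libraries fewer cells of a type and less RNA per cell cannot be told apart. All 9 lung epithelial markers reached FPKM 1 in at least 1 DMSO library, but not all did in both lines. NKX2-1, the lung lineage factor, averaged 16.4 FPKM in HCC4006 YAP1 KO and 21.3 in HCC4006 CTRL. In PC9 it averaged 0.0189 in YAP1 KO and 0 in CTRL. NAPSA averaged 0.297 FPKM in HCC4006 YAP1 KO and 1.32 in HCC4006 CTRL, against 0.331 in PC9 YAP1 KO and 0.277 in PC9 CTRL. Among markers of other cell types, PTPRC stayed at or below 0.0416 FPKM in every DMSO library, and DCN, MS4A1 and EMCN were listed at 0 in all 12. Of 11 immune markers 3 reached FPKM 1: CD68, a lysosomal protein, averaged 22.04 FPKM in HCC4006 YAP1 KO and 22.4 in HCC4006 CTRL, against 37.9 in PC9 YAP1 KO and 35.1 in PC9 CTRL, and CSF1R and CD14 stayed at or below 1.58 and 1.08. The immune markers summed to 22.9 to 25.1 FPKM in HCC4006 YAP1 KO, against 23.6 to 26.5 in HCC4006 CTRL, and to 37.8 to 41.8 in PC9 YAP1 KO, against 35.7 to 37.9 in PC9 CTRL. The fibroblast markers summed to 4.18 to 4.62 FPKM in HCC4006 YAP1 KO, against 7.98 to 8.30 in HCC4006 CTRL, and to 2.14 to 2.68 in PC9 YAP1 KO, against 2.48 to 2.81 in PC9 CTRL, with 4 of 11 reaching FPKM 1 (COL1A1, COL1A2, THY1 and ACTA2). No endothelial or neuroendocrine marker reached FPKM 1, and the part of these markers in the results was not tested.

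The knockout difference was unlike between the lines for many genes. Of 11845 genes, 3557 had a called interaction, 30% of those tested (limma, Benjamini-Hochberg adjusted p under 0.05, the rule for every call below). The interaction was positive in 1982 of them, 16.7% of genes tested, and negative in 1575, 13.3%. The median over all genes was 0.015, so the typical gene had an interaction near 0. At an unadjusted p under 0.05 the count was 4729. The knockout difference itself was called for 2841 genes in HCC4006 (24%) and for 4068 in PC9 (34.3%). By direction, 10.6% of genes tested fell and 13.3% rose in HCC4006, and 17.5% fell and 16.8% rose in PC9. These are the shares to set beside the counts by line of each list below.

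Most genes with a called interaction had a called knockout difference in 1 line. Of the 3557 called genes, 1749 (49.2%) had a called knockout difference in PC9 alone and 891 (25%) in HCC4006 alone. In opposite directions, 268 fell in HCC4006 and rose in PC9, and 234 rose in HCC4006 and fell in PC9. A further 70 rose in both lines and 115 fell in both, by unequal amounts, and 230 were called in neither line on its own. Across the 11845 genes the HCC4006 and PC9 differences correlated at Pearson's r = 0.0516, a description over genes that share libraries.

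**Figure D1:**
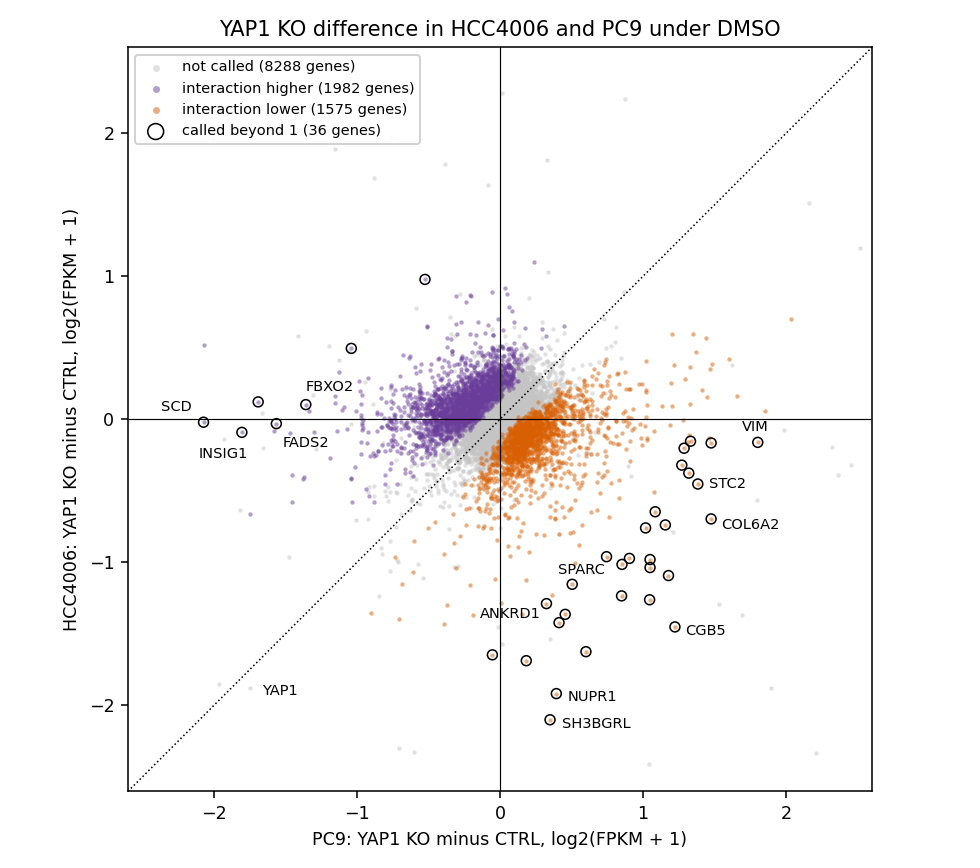
Knockout difference of each tested gene in HCC4006 (vertical axis) and PC9 (horizontal axis), YAP1 KO minus CTRL on log2(FPKM + 1), under DMSO. Genes on the dotted diagonal differ equally in both lines; purple marks the 1982 positive and orange the 1575 negative interactions, black rings mark the 36 called beyond 1, and 20 rows of short RNAs lie outside the axis limit of 2.6. YAP1 sits near the diagonal, SCD, INSIG1 and FADS2 lie at the left near the horizontal axis, and most ringed genes lie at the lower right.

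Most genes with a difference between lines called beyond 1 fell in HCC4006 and rose in PC9. When limma's treat test asked for an interaction larger than 1, 36 genes were called, 0.304% of those tested: 7 positive, 0.0591%, and 29 negative, 0.245%. The 7 ran from 1.46 to 2.05 and the 29 from -2.67 to -1.49. Of the 36, 23 fell in HCC4006 and rose in PC9, 2 did the reverse, 9 were called in PC9 alone and 2 in HCC4006 alone. In 7 of the 36 the mean was under FPKM 1 in a line, where log2(FPKM + 1) understates the change. The count depends on that scale: with a pseudocount of 0.1 it was 14 positive and 64 negative.

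**Figure D2:**
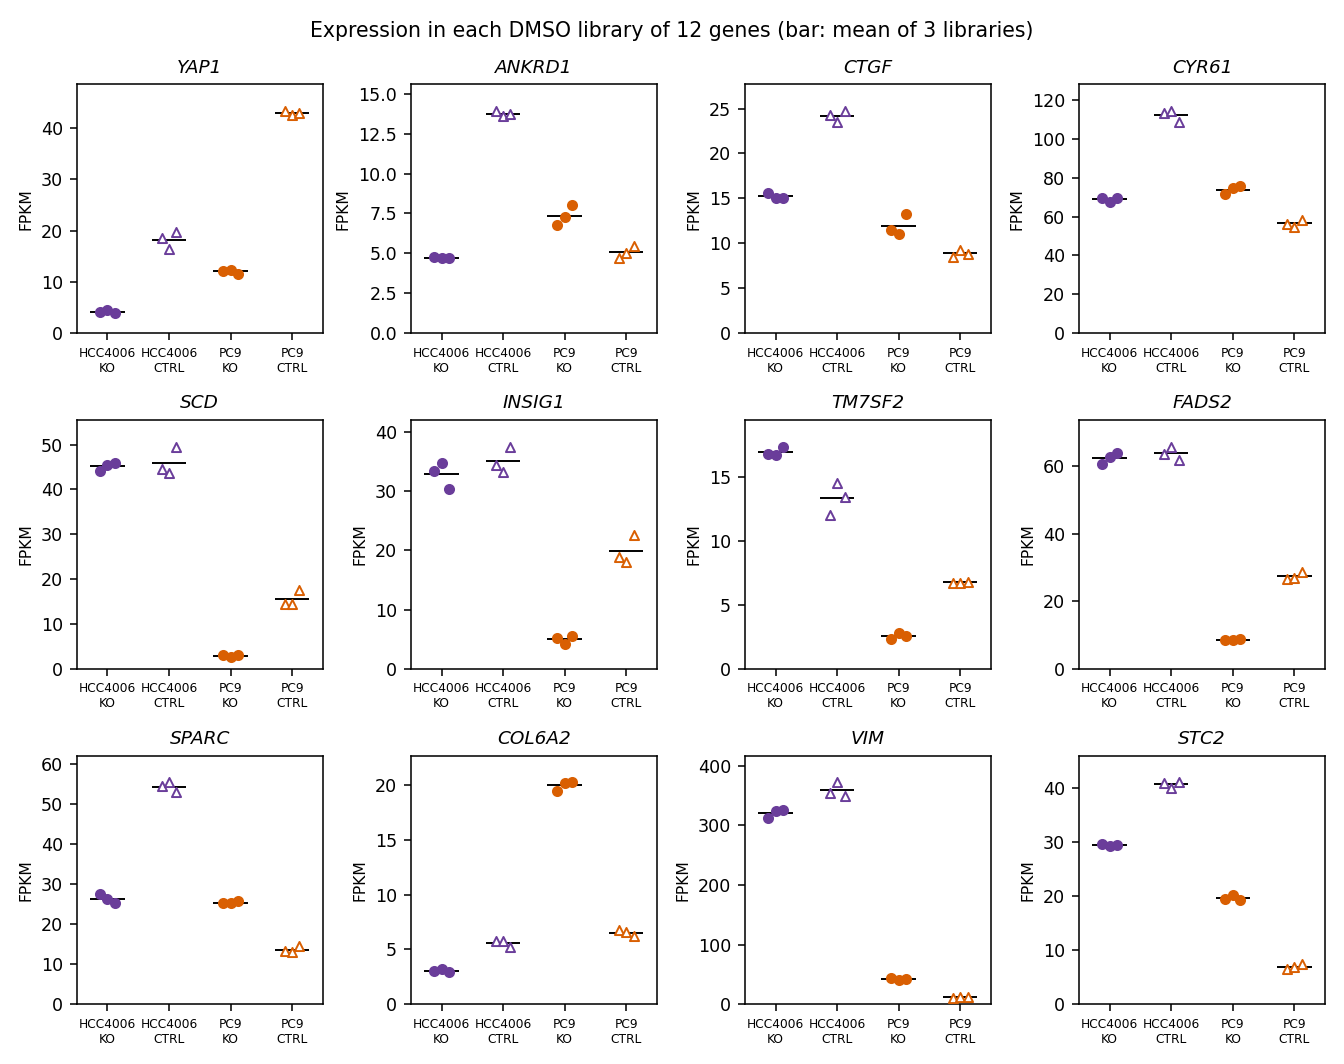
FPKM of 12 genes in each DMSO library, from left to right HCC4006 YAP1 KO, HCC4006 CTRL, PC9 YAP1 KO and PC9 CTRL; points are libraries, the bar is the mean of 3, and every axis starts at 0. ANKRD1, CTGF, CYR61, SPARC, COL6A2 and STC2 are lower in the knockout of HCC4006 and higher in the knockout of PC9. SCD, INSIG1, TM7SF2 and FADS2 are low in PC9 YAP1 KO.

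The genes listed as YAP/TEAD targets did not move as 1 group, and binding to them was not measured here. CTGF and CYR61 encode secreted matricellular proteins and ANKRD1 a nuclear ankyrin repeat protein, and these are the genes most often read as YAP1 activity. ANKRD1 was at 4.80, 4.72 and 4.69 FPKM in HCC4006 YAP1 KO, against 13.9, 13.6 and 13.8 FPKM in HCC4006 CTRL. The PC9 values were 6.79, 7.25 and 8.04 FPKM in YAP1 KO, against 4.74, 5.05 and 5.49 FPKM in CTRL. So ANKRD1 was lower in every knockout dish of HCC4006 and higher in every knockout dish of PC9. Its interaction was -1.82 with an SE of 0.13 (limma, adjusted p = 1.41e-09).

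CTGF showed the same split at a smaller size. It was at 15.6, 15.1 and 15.0 FPKM in HCC4006 YAP1 KO, against 24.3, 23.5 and 24.7 FPKM in HCC4006 CTRL. In PC9 it was at 11.5, 11 and 13.2 FPKM in YAP1 KO, against 8.47, 9.31 and 8.86 FPKM in CTRL. The groups did not overlap in either line, with opposite order, and the interaction was -1.01 with an SE of 0.12 (limma, adjusted p = 1.35e-06). CYR61 was at 69.3, 67.4 and 69.8 FPKM in HCC4006 YAP1 KO, against 113, 114 and 109 FPKM in HCC4006 CTRL. In PC9 CYR61 was at 71.5, 74.5 and 75.8 FPKM in YAP1 KO, against 56.3, 54.8 and 58.4 FPKM in CTRL, again without overlap. The interaction of CYR61 was -1.08 with an SE of 0.076 (limma, adjusted p = 1.71e-09).

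The promoters of 4 of these targets are shown because they hold the letters that TEAD factors bind, GGAATG or CATTCC on the other strand, and because their genes differ in how they moved. Each is the 250 bases before the annotated start, 5′ to 3′ on the gene's strand, from RefSeq on GRCh38.p14, with the TEAD letters in capitals. CTGF (chr6:131951373-131951622, minus strand) holds 3 matches and ANKRD1 (chr10:90921088-90921337, minus strand) holds 2. FOXF2 (chr6:1389326-1389575, plus strand) and AMOTL2 (chr3:134374448-134374697, minus strand) hold 1 each. No printed match overlaps another.
CTGF: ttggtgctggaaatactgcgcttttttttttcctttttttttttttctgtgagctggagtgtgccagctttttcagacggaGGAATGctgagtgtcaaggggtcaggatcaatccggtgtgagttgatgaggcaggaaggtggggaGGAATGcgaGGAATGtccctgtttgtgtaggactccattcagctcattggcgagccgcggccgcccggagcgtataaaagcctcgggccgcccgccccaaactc
ANKRD1: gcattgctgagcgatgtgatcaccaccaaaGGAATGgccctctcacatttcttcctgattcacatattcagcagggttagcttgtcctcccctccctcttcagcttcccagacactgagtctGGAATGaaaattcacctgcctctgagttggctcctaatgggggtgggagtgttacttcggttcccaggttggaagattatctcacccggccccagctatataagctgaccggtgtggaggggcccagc
FOXF2: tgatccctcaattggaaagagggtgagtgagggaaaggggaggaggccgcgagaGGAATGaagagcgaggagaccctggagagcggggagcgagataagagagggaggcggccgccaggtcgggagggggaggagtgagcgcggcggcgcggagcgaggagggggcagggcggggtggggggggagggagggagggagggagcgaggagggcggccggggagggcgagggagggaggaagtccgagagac
AMOTL2: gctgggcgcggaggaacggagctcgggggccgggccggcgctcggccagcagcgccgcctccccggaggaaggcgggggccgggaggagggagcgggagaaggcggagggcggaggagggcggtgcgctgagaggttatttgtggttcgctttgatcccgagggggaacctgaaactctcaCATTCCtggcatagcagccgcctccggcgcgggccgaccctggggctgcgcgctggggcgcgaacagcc
Of the 28 YAP/TEAD target genes tested, 21 had a promoter in the RefSeq table and 10 of these, 47.6%, held the letters. Among all 35116 promoters of that length the share was 11.9%. Of the 10, 5 had a called interaction (CTGF, ANKRD1, FOXF2, THBS1 and AXL) and 5 did not (AMOTL2, AJUBA, TGFB2, PTPN14 and NUAK2). Among the targets whose promoter lacked the letters, F3, LATS2, NT5E, GADD45B, IGFBP3, WWC1 and EDN1 had a called interaction. AMOTL1, FJX1, MYOF and CCDC80 did not. Calls were thus no more common among the targets that held the letters. A match is a run of letters, not a measured binding site.

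Of 28 tested members 13 had a negative and 4 a positive interaction, 60.7% together, beside 30% over all genes; the list median was -0.08 beside 0.015. The 4 positive calls became 2 with libraries scaled to the same sum, and also without PC9 CTRL replicate 3, PC9 YAP1 KO replicate 2, HCC4006 YAP1 KO replicate 1 or any 1 of the HCC4006 CTRL replicates. In HCC4006 15 members fell and 2 rose, beside 10.6% falling and 13.3% rising over all genes. In PC9 10 fell and 10 rose, beside 17.5% and 16.8%. Opposite calls, lower in HCC4006 and higher in PC9, were made for 6, among them CTGF, CYR61, ANKRD1, THBS1 and EDN1. THBS1, a matricellular thrombospondin, had an interaction of -0.63, and EDN1, the vasoconstrictor peptide endothelin, had -0.62.

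Other targets fell in both lines. AMOTL1, AMOTL2, AJUBA, NUAK2, CCDC80, IGFBP3 and WWC1 were lower in both knockouts. AMOTL2, an angiomotin that binds YAP1 and restrains it, had a log2 difference of -0.46 in HCC4006 and -0.49 in PC9, with an interaction of 0.03 (limma, adjusted p = 0.816). CCDC80, a matrix protein, had -0.85 in HCC4006 and -0.77 in PC9, with an interaction of -0.08 (limma, adjusted p = 0.46). In this set of 7, IGFBP3 and WWC1 differed between lines: IGFBP3, which binds insulin-like growth factors, fell more in HCC4006 (interaction -0.39), and WWC1, the scaffold KIBRA, fell more in PC9 (0.23).

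A called knockout difference in PC9 alone was found for 6 targets with a called interaction, and FOXF2, a forkhead factor of mesenchyme, was 1 of them. FOXF2 was at 3.51, 3.97 and 3.54 FPKM in HCC4006 YAP1 KO, against 3.65, 3.54 and 3.89 FPKM in HCC4006 CTRL. In PC9 dishes it stood at 1.95, 2.03 and 1.84 FPKM in YAP1 KO, against 0.263, 0.178 and 0.202 FPKM in CTRL. The HCC4006 groups overlapped and the PC9 groups did not, with an interaction of -1.28 (limma, adjusted p = 5.68e-08). Among the PC9 DMSO dishes only the knockouts reached the FPKM 1 of the filter, so the PC9 gap is not independent of that filter. NT5E, the ecto-nucleotidase CD73, AXL, a receptor tyrosine kinase, and CRIM1, a BMP-binding membrane protein, also rose in PC9 and had no call in HCC4006, with interactions of -0.50, -0.26 and -0.45. TAZ was also measured: WWTR1 had a log2 difference of 0.16 in HCC4006 (adjusted p = 0.021) and 0.11 in PC9 (adjusted p = 0.0757), with an interaction of 0.04 ± 0.067 SE (limma, adjusted p = 0.667).

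**Figure D3:**
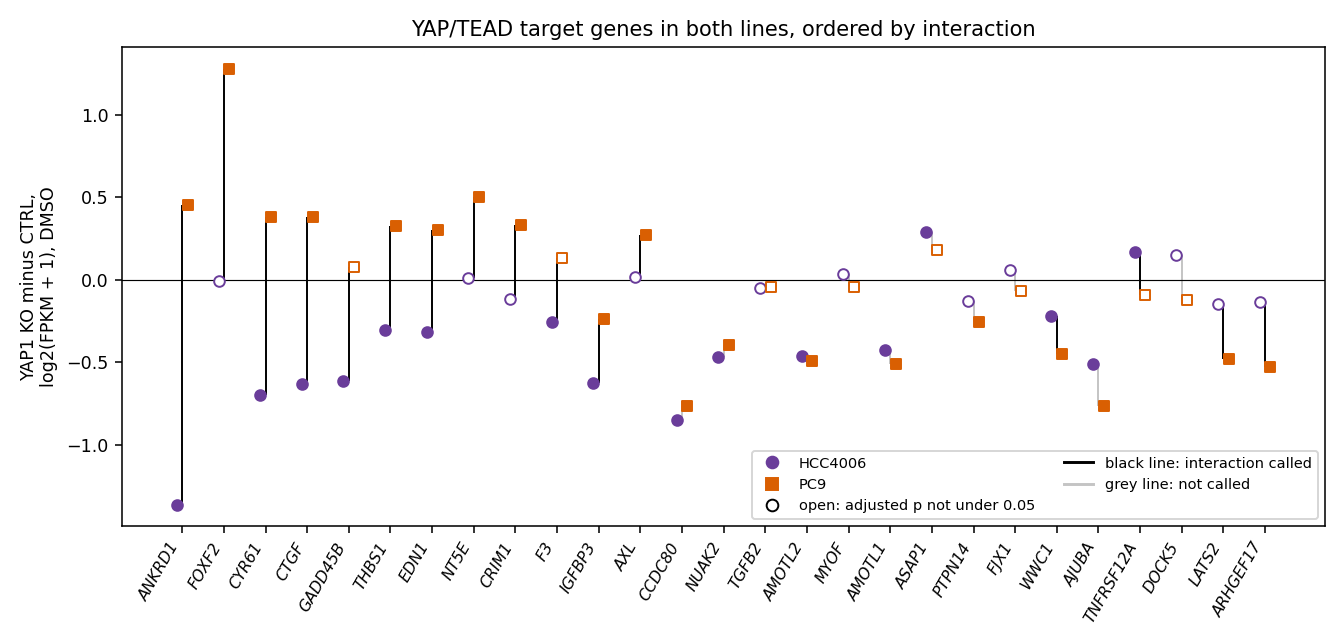
YAP1 KO minus CTRL on log2(FPKM + 1) for 27 YAP/TEAD target genes, ordered from the most negative to the most positive interaction, with HCC4006 as purple circles and PC9 as orange squares; filled symbols were called in that line and black lines mark a called interaction. At the left, ANKRD1, CYR61 and CTGF lie below 0 in HCC4006 and above 0 in PC9, while AMOTL1, AMOTL2, AJUBA, NUAK2 and CCDC80 lie below 0 in both lines.

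Nearly all cholesterol genes had a positive interaction. Cells make cholesterol from acetyl-CoA in many enzyme steps, and SREBF2 encodes the transcription factor that switches the pathway on when sterols are low, while INSIG1 holds that factor back. Of 24 tested members 21 had a positive interaction and 0 a negative one, 87.5% called beside 30% over all genes. The list median was 0.72 beside 0.015. In PC9 21 members fell and 0 rose; in HCC4006 3 fell and 1 rose. The 3 members without a call were PMVK, NSDHL and EBP, and their interactions ran from 0.07 to 0.17.

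INSIG1 was at 33.4, 34.8 and 30.5 FPKM in HCC4006 YAP1 KO, against 34.4, 33.2 and 37.6 FPKM in HCC4006 CTRL. The PC9 values were 5.24, 4.21 and 5.52 FPKM in YAP1 KO, against 19.0, 18.1 and 22.7 FPKM in CTRL. The HCC4006 groups overlapped, and every PC9 knockout dish was below every PC9 control dish. Its interaction was 1.71 with an SE of 0.12 (limma, adjusted p = 2.19e-09).

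Enzymes along the pathway had smaller interactions. TM7SF2, a sterol C14 reductase, was at 16.8, 16.7 and 17.4 FPKM in HCC4006 YAP1 KO, against 12, 14.5 and 13.5 FPKM in HCC4006 CTRL. In PC9 TM7SF2 was at 2.34, 2.83 and 2.55 FPKM in YAP1 KO, against 6.73, 6.74 and 6.83 FPKM in CTRL. It rose in HCC4006 and fell in PC9, the 1 member of the list with opposite calls, and its interaction was 1.45 (limma, adjusted p = 1.95e-09). DHCR7, which reduces a late double bond of the sterol, had an interaction of 1.06. SREBF2 itself had 0.95, and SQLE, the squalene epoxidase, had 0.76. IDI1, an isomerase of isoprenoid units, had 0.91, and HMGCS1, which fell in both lines, had 0.39.

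The promoter of SREBF2 is shown because it was the 1 promoter of the cholesterol list that held the letters of the sterol regulatory element, TCACNCCAC or GTGGNGTGA on the other strand. It is the 250 bases before the start (chr22:41832855-41833104, plus strand, GRCh38.p14, RefSeq), with the match in capitals.
SREBF2: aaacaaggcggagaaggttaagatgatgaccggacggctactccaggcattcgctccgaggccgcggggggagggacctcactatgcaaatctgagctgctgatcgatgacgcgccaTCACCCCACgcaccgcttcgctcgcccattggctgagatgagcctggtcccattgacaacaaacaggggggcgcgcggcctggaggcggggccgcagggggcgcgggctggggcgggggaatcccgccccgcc
Of the 24 tested members 17 had a promoter in the table, so the share with a match was 5.88%, beside 0.883% of all 35116 promoters. None of the fatty acid promoters in the table held it, 0 of 12. The window ends at the start site, and letters outside it were not searched.

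Fatty acid genes also had mostly positive interactions. SREBF1 encodes the related factor that acts on this set, SCD inserts the first double bond into saturated fatty acids, and FADS1 and FADS2 desaturate polyunsaturated ones. Of 14 tested members 11 had a positive and 1 a negative interaction, 85.7% called, with a median of 0.54. In PC9 12 fell and 1 rose, and in HCC4006 3 fell and 1 rose. SCD was at 44.2, 45.4 and 46.0 FPKM in HCC4006 YAP1 KO, against 44.5, 43.6 and 49.6 FPKM in HCC4006 CTRL. In PC9 SCD was at 3.06, 2.6 and 3.08 FPKM in YAP1 KO, against 14.4, 14.5 and 17.6 FPKM in CTRL. The HCC4006 groups overlapped, the PC9 groups lay far apart, and the interaction was 2.05 with an SE of 0.12 (limma, adjusted p = 1.73e-10).

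FADS2 was at 60.5, 62.7 and 63.8 FPKM in HCC4006 YAP1 KO, against 63.6, 65.7 and 61.7 FPKM in HCC4006 CTRL. In PC9 it was at 8.52, 8.61 and 8.73 FPKM in YAP1 KO, against 26.7, 27.0 and 28.6 FPKM in CTRL. Here too only the PC9 groups were apart, and the interaction was 1.53 (limma, adjusted p = 1.18e-11). FADS1 followed with 1.14, ELOVL6, an elongase, with 0.84, and FASN, the fatty acid synthase, with 0.60. FABP5, a carrier of fatty acids that makes none, was the member that went the other way. It was at 32.5, 33.8 and 32.8 FPKM in HCC4006 YAP1 KO, against 44.9, 45.7 and 43.1 FPKM in HCC4006 CTRL. In PC9 FABP5 was at 61.1, 59.0 and 54.4 FPKM in YAP1 KO, against 34.7, 31.1 and 30.8 FPKM in CTRL, and its interaction was -1.26 (limma, adjusted p = 6.87e-06).

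Mesenchymal genes stood on the other side of 0. Epithelial to mesenchymal transition is driven by factors such as SNAI2 and TWIST2 and read from structural genes such as VIM, the intermediate filament vimentin. Of 14 tested members 9 had a negative and 1 a positive interaction, 71.4% called, with a median of -0.46. The 1 positive call was lost with median-of-ratios scaling and without any 1 of 5 DMSO libraries: PC9 CTRL replicate 1, PC9 YAP1 KO replicate 1, HCC4006 CTRL replicate 1 or 3, or HCC4006 YAP1 KO replicate 3. In PC9 8 rose and 3 fell, and in HCC4006 0 rose and 6 fell. VIM was at 312, 325 and 327 FPKM in HCC4006 YAP1 KO, against 355, 373 and 350.1 FPKM in HCC4006 CTRL. In PC9 dishes it stood at 43.4, 41.3 and 43.2 FPKM in YAP1 KO, against 11, 11.7 and 11.8 FPKM in CTRL. Neither pair of groups overlapped, but the HCC4006 difference did not pass the test (log2 -0.16, limma, adjusted p = 0.347). The interaction of VIM was -1.96 with an SE of 0.16 (limma, adjusted p = 1.98e-08), and the PC9 knockout stayed far under both HCC4006 groups.

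SPARC, a collagen-binding matrix protein, was at 27.5, 26.2 and 25.4 FPKM in HCC4006 YAP1 KO, against 54.5, 55.5 and 53 FPKM in HCC4006 CTRL. The PC9 values were 25.3, 25.3 and 25.7 FPKM in YAP1 KO, against 13.4, 13 and 14.6 FPKM in CTRL. Control cells of the lines were far apart, and the knockout dishes of both lines lay between them. The interaction was -1.87 with an SE of 0.057 (limma, adjusted p = 6.91e-15). TWIST2 and SNAI2 overlapped between genotypes in HCC4006 and rose in PC9, with interactions of -1.59 and -0.81. TAGLN and FN1 had negative interactions without a rise in PC9: TAGLN, an actin-binding protein, fell in both lines, and FN1, fibronectin, fell in HCC4006.

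Genes of the matrix split by member. Of 21 tested collagens and matrix proteins 9 had a negative and 8 a positive interaction, 81% called, with a median of 0.02. COL6A2, a chain of collagen VI, was at 3.02, 3.23 and 2.98 FPKM in HCC4006 YAP1 KO, against 5.79, 5.79 and 5.25 FPKM in HCC4006 CTRL. In PC9 it was at 19.5, 20.1 and 20.2 FPKM in YAP1 KO, against 6.80, 6.56 and 6.23 FPKM in CTRL. The control groups of the lines were close and the knockouts went apart, with an interaction of -2.17 (limma, adjusted p = 5.64e-14). COL6A1, its partner chain, had -0.67, and MFAP2, a microfibril protein, had -1.34 after rising in both lines. AGRN, the basement membrane proteoglycan agrin, had 0.80 and COL12A1 had 0.71.

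Integrins, the receptors that bind matrix, had 6 negative and 0 positive interactions among 11 tested, 54.5% called, with a median of -0.28. In PC9 7 rose and 1 fell, and in HCC4006 0 rose and 2 fell. ITGA2, the collagen-binding alpha 2 chain, was at 53.7, 53.5 and 50.3 FPKM in HCC4006 YAP1 KO, against 48.1, 41.1 and 47.2 FPKM in HCC4006 CTRL. In PC9 ITGA2 was at 22.3, 21.9 and 20.8 FPKM in YAP1 KO, against 8.02, 7.72 and 6.80 FPKM in CTRL. It was higher in every knockout dish of both lines, but the HCC4006 difference did not pass (log2 0.21, limma, adjusted p = 0.0683). The interaction of ITGA2 was -1.21 (limma, adjusted p = 9.97e-08). ITGB6, whose protein frees TGF-beta from its latent form, had -0.67.

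The plasminogen system and metalloproteases had 8 negative and 1 positive interaction among 12 tested, 75% called, with a median of -0.44. MMP14, a membrane-bound collagenase, fell in HCC4006 and rose in PC9, with log2 differences of -0.47 and 0.47. ADAM19, a membrane metalloprotease, was at 4.01, 4.04 and 3.87 FPKM in HCC4006 YAP1 KO, against 5.42, 5.25 and 4.97 FPKM in HCC4006 CTRL. In PC9 ADAM19 was at 2.37, 2.32 and 2.47 FPKM in YAP1 KO, against 0.494, 0.344 and 0.379 FPKM in CTRL. The groups did not overlap in either line, and its interaction was -1.59 (limma, adjusted p = 4.58e-11). Among the PC9 DMSO dishes ADAM19 too reached the FPKM 1 of the filter in the knockouts alone.

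**Figure D4:**
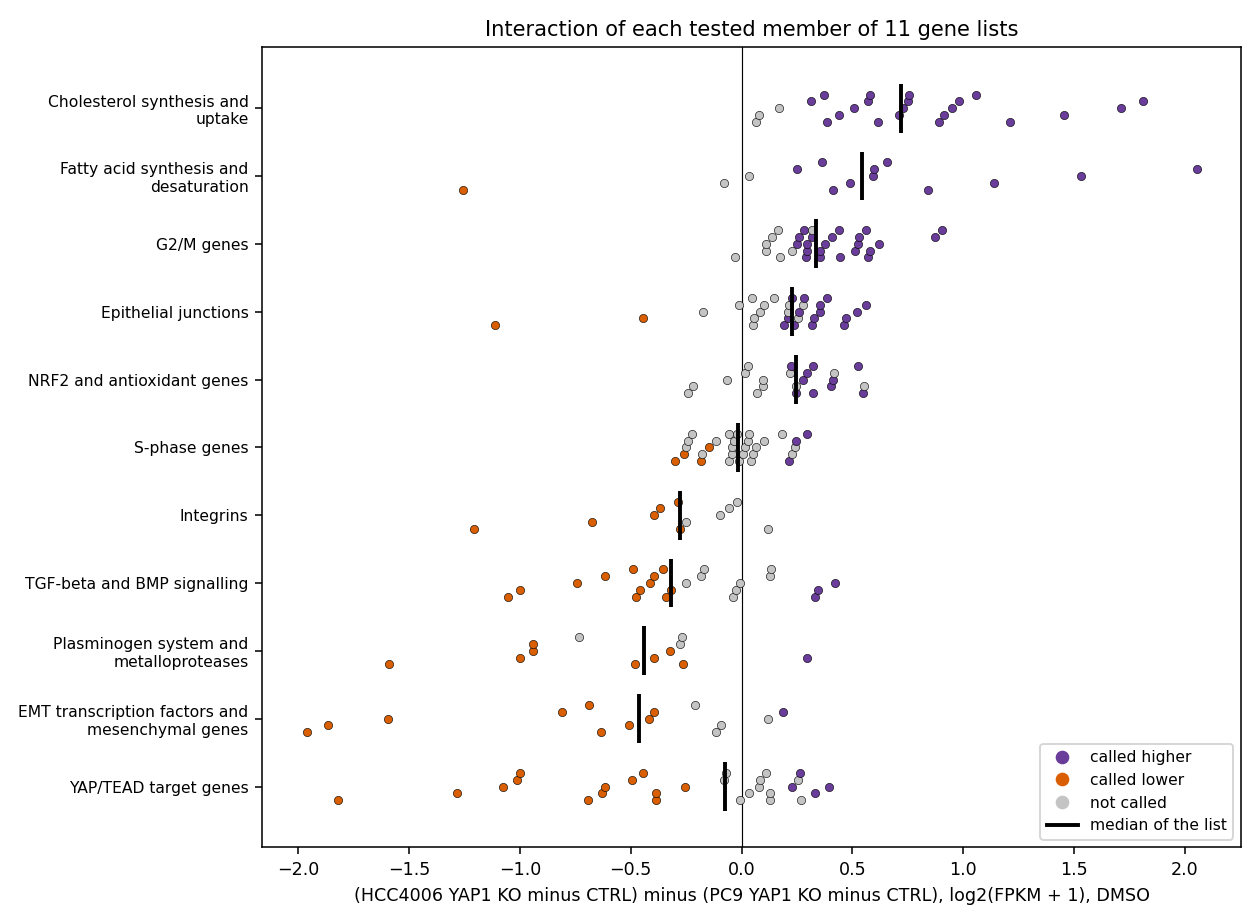
Interaction of each tested member of 11 gene lists on log2(FPKM + 1) under DMSO; each point is a gene, purple and orange points were called higher and lower, grey points were not called, and the black bar is the median of the list. Cholesterol synthesis lies furthest right with a median of 0.72, mesenchymal genes furthest left with -0.46, and S-phase genes are centred near 0.

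TGF-beta and BMP ligands signal through SMAD proteins, and SMAD7, SKIL, BAMBI and PMEPA1 are feedback inhibitors that the pathway turns on. Of 23 tested members 12 had a negative and 3 a positive interaction, 65.2% called, with a median of -0.32. In PC9 17 rose and 3 fell, and in HCC4006 10 rose and 3 fell. PMEPA1 was at 332, 342 and 339 FPKM in HCC4006 YAP1 KO, against 253, 259 and 253 FPKM in HCC4006 CTRL. In PC9 dishes it stood at 136, 131 and 138 FPKM in YAP1 KO, against 66.3, 67.2 and 64.6 FPKM in CTRL. PMEPA1 rose in both lines and the interaction was -0.62 (limma, adjusted p = 7.55e-07). GREM1, a secreted BMP antagonist, fell in HCC4006 and rose in PC9 (interaction -1.05). It stayed under FPKM 1 in the PC9 DMSO dishes, so in PC9 it passed the filter only through OT libraries. INHBB, an activin subunit, fell in both lines, with a log2 difference of -0.34 in HCC4006 and -0.77 in PC9. With a minimum of FPKM 5, which tests fewer genes, the count of negative calls was 6.

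Epithelial junction genes had 15 positive and 2 negative interactions among 29 tested, 58.6% called, with a median of 0.23. In PC9 16 fell and 2 rose, and in HCC4006 6 rose and 3 fell. DSP, the desmosomal plaque protein desmoplakin, was at 5.24, 4.96 and 4.79 FPKM in HCC4006 YAP1 KO, against 4.63, 3.86 and 4.86 FPKM in HCC4006 CTRL. In PC9 DSP was at 12.9, 13 and 13.2 FPKM in YAP1 KO, against 17.5, 17.9 and 18.1 FPKM in CTRL. The HCC4006 groups overlapped, the PC9 groups did not, and the interaction was 0.56 (limma, adjusted p = 1.97e-05). TJP1 and TJP3, tight junction scaffolds, rose in HCC4006 and fell in PC9, with interactions of 0.47 and 0.52. CDH1, E-cadherin, fell in PC9 with a log2 difference of -0.16 and had 0.07 in HCC4006 (limma, adjusted p = 0.32). PKP1, plakophilin, went the other way with -1.11.

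GJB2, the gap junction protein connexin 26, was at 1.82, 1.92 and 1.99 FPKM in HCC4006 YAP1 KO, against 2.77, 2.91 and 2.64 FPKM in HCC4006 CTRL. The PC9 values were 5.33, 5.90 and 4.74 FPKM in YAP1 KO, against 1.82, 1.49 and 1.29 FPKM in CTRL. GJB2 fell in HCC4006 and rose in PC9, and its interaction was -1.70 (limma, adjusted p = 3.37e-10). The connexin GJB5 fell in PC9 and had an interaction of 0.36. Keratins fell more widely in HCC4006, where 10 of 10 tested members were lower, beside 10.6% over all genes. In PC9 5 were lower and 3 higher, beside 17.5% and 16.8%. Their interactions were negative for 6 and positive for 0, 60% called beside 30% over all genes. The 6 became 3 when every library was scaled to the same sum. The 0 became 5 without the expression filter, which tests more genes.

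Mitotic genes had positive interactions, with rises in HCC4006 and falls in PC9. Of 30 tested G2/M genes, which build and run the mitotic spindle, 22 had a positive and 0 a negative interaction, 73.3% called, with a median of 0.34. In HCC4006 17 rose and 0 fell, and in PC9 0 rose and 12 fell, with 7 called in opposite directions. Of 30 S-phase genes 3 had a positive and 4 a negative interaction, 23.3% called beside 30% over all genes, with a median of -0.02. The 4 became 2 with libraries scaled to the same sum and without HCC4006 CTRL replicate 3 or HCC4006 YAP1 KO replicate 3, and 8 with the DMSO libraries fitted alone. KIF23, a kinesin of the cytokinetic bridge, was at 70.8, 70.5 and 68.9 FPKM in HCC4006 YAP1 KO, against 53.7, 51.2 and 56.2 FPKM in HCC4006 CTRL. In PC9 KIF23 was at 44.2, 43.2 and 44.0 FPKM in YAP1 KO, against 52.8, 50.9 and 52.3 FPKM in CTRL. The groups were apart in both lines in opposite order, and the interaction was 0.62 (limma, adjusted p = 1.61e-07).

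The sizes in the mitotic list were modest. CENPF, a kinetochore protein, had the largest interaction of the list, 0.90 with an SE of 0.15, and its HCC4006 CTRL dishes were uneven at 14.6, 10.7 and 17.5 FPKM. CENPE, a kinetochore kinesin, had 0.87 and NUSAP1, a microtubule bundler, 0.58. MKI67, the proliferation marker Ki-67, had 0.57. CDKN1A, the CDK inhibitor p21, was at 53.9, 56.9 and 62.1 FPKM in HCC4006 YAP1 KO, against 45.0, 50.1 and 50.2 FPKM in HCC4006 CTRL. In PC9 CDKN1A was at 13.6, 15.3 and 14.9 FPKM in YAP1 KO, against 6.98, 6.82 and 7.04 FPKM in CTRL. It rose in PC9, and its HCC4006 difference did not pass (log2 0.25, limma, adjusted p = 0.278). The interaction of CDKN1A was -0.73 (limma, adjusted p = 0.0158). Other CDK inhibitors went the other way: CDKN2C had a called interaction of 0.865 and CDKN1C of 0.52, while CDKN1B had 0.12 without a call. Of 25 tested CDK inhibitors and p53 targets 4 had a positive and 4 a negative interaction, 32% called beside 30% over all genes.

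Antioxidant genes fell in PC9. NRF2 is the factor that turns on glutathione, thioredoxin and NADPH-producing enzymes. Of 22 tested members 10 had a positive and 0 a negative interaction, 45.5% called, with a median of 0.25. In PC9 18 fell and 0 rose, and in HCC4006 4 fell and 1 rose. PGD, a pentose phosphate enzyme that makes NADPH, was at 77.5, 73.9 and 81.6 FPKM in HCC4006 YAP1 KO, against 78.1, 81.7 and 78.0 FPKM in HCC4006 CTRL. In PC9 PGD was at 105, 109.6 and 109 FPKM in YAP1 KO, against 156, 158 and 162 FPKM in CTRL. The HCC4006 groups overlapped and the interaction was 0.52 (limma, adjusted p = 1.5e-07). GSR, glutathione reductase, rose in HCC4006 and fell in PC9, with an interaction of 0.55.

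Growth signalling genes differed in part. Of 21 tested MAPK output and feedback genes 8 had a negative and 3 a positive interaction, 52.4% called, with a median of -0.18. The 8 became 5 with a pseudocount of 0.1 and 3 with 0.01, and the 3 became 1 with either. In PC9 10 rose and 3 fell, and in HCC4006 3 rose and 4 fell. DUSP6, a phosphatase that shuts off ERK, was at 47.3, 47.8 and 42.6 FPKM in HCC4006 YAP1 KO, against 52.7, 55.2 and 55.1 FPKM in HCC4006 CTRL. In PC9 DUSP6 was at 8.21, 9.32 and 7.96 FPKM in YAP1 KO, against 4.68, 4.74 and 5.35 FPKM in CTRL. The groups did not overlap in either line, though the HCC4006 difference did not pass (log2 -0.24, limma, adjusted p = 0.186). The interaction of DUSP6 was -0.92 (limma, adjusted p = 0.000523), a call lost with a pseudocount of 0.1 (adjusted p = 0.194) or 0.01 (adjusted p = 0.52), while its value stayed between -1.03 and -0.86 over the alternatives. HMGA2, a chromatin protein, rose in PC9 and had -0.88, with a value of -0.91 and no call at a pseudocount of 0.01 (adjusted p = 0.0589). HBEGF, an EGFR ligand, fell in HCC4006 and rose in PC9 with -1.31. It was the 1 negative call among 9 tested EGF ligands and ERBB receptors, where 3 were positive, 44.4% called beside 30% over all genes. The 3 became 1 with libraries scaled to the same sum without MIR1244. EGFR had 0.27 (limma, adjusted p = 0.33), but was called with the DMSO libraries fitted alone, with array weights and without HCC4006 CTRL OT replicate 1.

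Among AP-1 subunits and immediate early genes 7 of 12 tested had a negative and 3 a positive interaction, 83.3% called, with a median of -0.29. The 7 became 3 when libraries were scaled to the same sum. The 3 became 1 without PC9 CTRL replicate 2, PC9 YAP1 KO replicate 1 or 2, or HCC4006 YAP1 KO replicate 3. JUNB rose in PC9 and overlapped between genotypes in HCC4006 (interaction -0.50), and MYC, the growth-promoting factor, fell in HCC4006 and rose in PC9 (-0.67). The 3 positive calls were FOSL1 at 0.33, JUND at 0.28 and KLF4 at 0.33, so calls among the AP-1 subunits went both ways.

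Several of the genes called beyond 1 lay outside these lists. The most negative of them was CGB5, a copy of the beta chain of chorionic gonadotropin, a hormone of the placenta. CGB5 was at 3.55, 2.86 and 3.63 FPKM in HCC4006 YAP1 KO, against 10.45, 12.8 and 9.55 FPKM in HCC4006 CTRL. In PC9 CGB5 was at 9.5, 9.30 and 8.68 FPKM in YAP1 KO, against 3.34, 3.49 and 3.23 FPKM in CTRL. The order was opposite in the lines with no overlap, and the interaction was -2.67 with an SE of 0.13 (limma, adjusted p = 3.66e-12). CGB8, CGB and CGB1 moved the same way with -2.27, -2.09 and -2.03, but these copies are nearly identical and the counting could split their reads between them.

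SH3BGRL, a small thioredoxin-fold protein, was at 4.89, 5.55 and 4.99 FPKM in HCC4006 YAP1 KO, against 24.5, 24.5 and 26.9 FPKM in HCC4006 CTRL. In PC9 it was at 41.7, 41.3 and 41.3 FPKM in YAP1 KO, against 31.1, 32.6 and 33.2 FPKM in CTRL. It fell to 0.203 times the control mean in HCC4006 and rose in PC9, with an interaction of -2.45 (limma, adjusted p = 1.02e-14). NUPR1, a stress-induced chromatin protein, was at 6.44, 4.78 and 5.15 FPKM in HCC4006 YAP1 KO, against 23.4, 25.5 and 21.0 FPKM in HCC4006 CTRL. In PC9 NUPR1 was at 5.74, 6.04 and 4.85 FPKM in YAP1 KO, against 3.78, 3.88 and 4.25 FPKM in CTRL. The groups did not overlap in either line, and the interaction was -2.31 (limma, adjusted p = 4.35e-09).

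STC2, a secreted glycoprotein of the stress response, was at 29.7, 29.2 and 29.5 FPKM in HCC4006 YAP1 KO, against 40.9, 40.1 and 41.1 FPKM in HCC4006 CTRL. In PC9 dishes it stood at 19.4, 20.2 and 19.3 FPKM in YAP1 KO, against 6.49, 6.89 and 7.37 FPKM in CTRL. It fell in HCC4006 and rose in PC9, and the interaction was -1.84 (limma, adjusted p = 6.46e-14). EPDR1, a lysosomal ependymin-related protein, was at 3.17, 3.42 and 3.23 FPKM in HCC4006 YAP1 KO, against 8.91, 9.40 and 8.84 FPKM in HCC4006 CTRL. In PC9 EPDR1 was at 16.2, 16.0 and 16.7 FPKM in YAP1 KO, against 9.16, 8.24 and 8.46 FPKM in CTRL. Its control levels were close in the lines and its knockout levels lay apart, with an interaction of -2.08 (limma, adjusted p = 5.64e-14).

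CST1, a secreted cysteine protease inhibitor, was at 0, 0 and 0.0919 FPKM in HCC4006 YAP1 KO, against 1.85, 1.06 and 1.57 FPKM in HCC4006 CTRL. In PC9 CST1 was at 2.38, 2.43 and 2.69 FPKM in YAP1 KO, against 0.958, 0.531 and 0.619 FPKM in CTRL. Its interaction was -2.31 at these low levels (limma, adjusted p = 4.91e-09). Among the DMSO dishes CST1 reached the FPKM 1 of the filter only in HCC4006 CTRL and PC9 YAP1 KO, the groups where it is high. LRRN1, a neuronal leucine-rich repeat protein, had -2.23 and PKIA, an inhibitor of protein kinase A, had -1.89.

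On the positive side outside the lipid lists, RGS7, a regulator of G protein signalling, rose in HCC4006 and fell in PC9. RGS7 was at 1.6, 1.93 and 2.13 FPKM in HCC4006 YAP1 KO, against 1.15, 0.914 and 1.06 FPKM in HCC4006 CTRL. In PC9 RGS7 was at 0.168, 0.232 and 0.275 FPKM in YAP1 KO, against 1.46, 1.53 and 1.55 FPKM in CTRL. The interaction was 1.53 (limma, adjusted p = 1.41e-09). Among the PC9 DMSO dishes RGS7 reached the FPKM 1 of the filter in CTRL alone. FBXO2, a ubiquitin ligase subunit that binds sugar-bearing proteins, was at 13.8, 14.5 and 13.2 FPKM in PC9 YAP1 KO, against 34.6, 39.5 and 36.9 FPKM in PC9 CTRL, and had 1.46. C9orf169 rose in HCC4006 and fell in PC9 with 1.502. The row of MINOS1-NBL1 had 2.59, but its SE was 0.55, it names a readthrough of neighbouring genes, and its reads cannot be told apart from theirs.

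The OT dishes, which the DMSO difference did not use, gave a second measure of the same interaction. Of the 3557 genes called under DMSO, 2200 (61.8%) were called in the same direction under OT and 134 in the opposite one, where 42.5% of all genes tested were called under OT. All 36 genes called beyond 1 under DMSO were called under OT in the same direction. Across the 11845 genes the DMSO and OT interactions correlated at Pearson's r = 0.414, a description, with knockout cultures and lines shared. The difference between the DMSO and OT interactions itself was called for 754 of the 3557. Over all genes tested it was called for 13.5%, with 6.4% positive and 7.06% negative.

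Some genes differed between the treatments in size or sign. The interaction of CTGF was -1.01 under DMSO and -2.36 under OT (limma, adjusted p of the difference = 1.3e-05). STC2, NUPR1 and GJB2 were smaller under OT, at -0.59, -0.64 and -0.44, and each difference was called. ITGA2 had -1.21 under DMSO and 0.08 under OT (limma, adjusted p of the difference = 1.79e-05). For KIF23 the values were 0.62 and -0.06 (adjusted p of the difference = 1.98e-05, limma). SPARC and COL6A2 had nearly the same interaction in both treatments, -1.87 and -1.80 for SPARC and -2.17 and -2.14 for COL6A2. INSIG1 had 1.71 under DMSO and 1.78 under OT.

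By list, the cholesterol list had 21 positive and 0 negative interactions under OT, with a median of 0.65, beside 25.4% positive and 17.1% negative over all genes. The G2/M list had 7 positive and 4 negative, with a median of 0.05, and the S-phase list 25 positive and 1 negative, with a median of 0.64. The YAP/TEAD target list had 0 positive and 19 negative, with a median of -0.54.

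**Figure D5:**
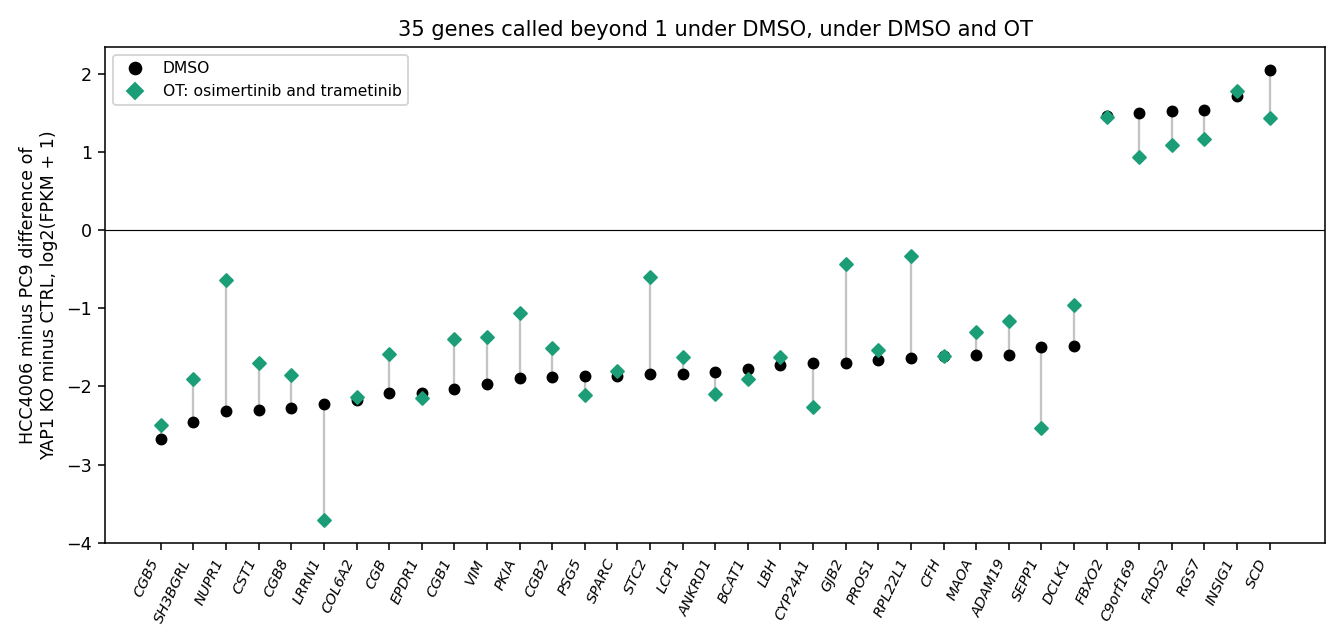
Interaction of 35 of the genes called beyond 1 under DMSO, ordered by their DMSO value (black circles), with the value of the same gene in the OT dishes (green diamonds), both on log2(FPKM + 1). All 35 keep their sign; NUPR1, STC2, GJB2 and RPL22L1 lie closer to 0 under OT, and LRRN1 and SEPP1 lie further from it.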

How the data were processed

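RNA of 10 cm dishes was sequenced from stranded mRNA libraries. The authors deposited FPKM per gene; Cufflinks 2.2.1, STAR 2.5.1b and DESeq2 1.10.1, with hg19 and GRCh37, are named in the submitters' processing notes, and which annotation was used is not given. Rows that reached FPKM 1 in 3 or more libraries of each line were kept (11845 of 25365). A gene can pass in a line through the libraries of 1 group. A gap between groups in that line is then not independent of the filter. Values were log2(FPKM + 1), which understates changes of low genes. One limma 3.58.1 fit (R 4.3.3, trended variance) took all 24 libraries in 8 groups, with 16 residual degrees of freedom and Benjamini-Hochberg adjustment over all genes. It was tested on simulated data. The treat test used a log2 difference of 1. Absolute depth is unknown; no 2 libraries were identical. Columns marked untreated by their names were taken as DMSO from the labels. Members and gene lists were chosen with earlier results of these data known. By rule the text drew on 148 genes: YAP1, the 12 highest and 12 lowest called interactions outside short RNAs, up to 4 called members of each list by size, the 4 largest of each pattern called in both lines, and genes of interest such as CTGF and VIM; other list members and genes called beyond 1 are named as examples chosen after their values were seen. Alternatives covered pseudocount, filter, scaling, variance, weights, replicate block and each library left out. Some genes are not reported here.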

Additional observations from a re-analysis of the deposited data

Results flagged for a closer look

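A knockout difference that was unlike in HCC4006 and PC9 under DMSO, tested by the interaction on log2(FPKM + 1) against a size of 1, singled out 23 of the named genes. Among lipid genes these were SCD at 2.05, INSIG1 at 1.71 and FADS2 at 1.53. Among genes of matrix and mesenchyme they were COL6A2 at -2.17, VIM at -1.96, SPARC at -1.87 and ADAM19 at -1.59. The chorionic gonadotropin copies were CGB5 at -2.67, CGB8 at -2.27, CGB at -2.09 and CGB1 at -2.03, with reads that near-identical copies may share. Genes of stress, adhesion and YAP1 output were STC2 at -1.84, ANKRD1 at -1.82 and GJB2 at -1.70. The other negative values were SH3BGRL at -2.45, NUPR1 at -2.31, CST1 at -2.31, LRRN1 at -2.23, EPDR1 at -2.08 and PKIA at -1.89, and the other positive ones were RGS7 at 1.53, C9orf169 at 1.502 and FBXO2 at 1.46. A test for a single outlying sample within a group was not run, since each group had 3 dishes.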

How the results depend on the processing

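Beyond a log2 difference of 1 there were 14 positive genes with a pseudocount of 0.1 and 16 with 0.01, against 7, and 64 negative with either, or 14 at a minimum of FPKM 5, against 29. The difference between the DMSO and OT interactions was negative for 524 genes with libraries scaled to the same sum, and 549 without MIR1244 in that sum, against 836. Array weights gave 2528 genes higher in HCC4006 YAP1 KO, against 1581, and 1269 positive and 1278 negative differences between DMSO and OT, against 758 and 836. The cause was not tested. VGLL1, near 0 in HCC4006, had -0.32 with a pseudocount of 0.01 (adjusted p = 0.857), against 0.90, and BCL2L11, at 0.06, ran from -0.001 (without HCC4006 YAP1 KO DMSO replicate 2) to 0.126 when 1 library was left out. Leaving out 1 library gave 1750 to 2318 positive and 1374 to 1898 negative interactions, and 6 to 9 and 25 to 30 beyond 1. The 2318 and the 1898 both came without HCC4006 CTRL OT replicate 1, which enters the DMSO interaction only through the pooled spread. Without that library 4216 interactions were called, against 3557. The DMSO libraries fitted alone gave 4082, and array weights gave 5006. With the replicate block 3579 interactions were called, 3404 of them shared. Deviations from the group mean were correlated between YAP1 KO and CTRL libraries of a line under DMSO. For same-numbered libraries the values ran from -0.157 to 0.0779, and for other numbers from -0.248 to 0.299. They show no pairing by number, but 3 dishes per group cannot settle whether the numbers pair the dishes. Absolute depth, which the files do not give, limits what low genes can show.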

Other observations

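Over all genes 30% had a called interaction, 16.7% positive and 13.3% negative (limma, adjusted p under 0.05). The knockout difference was called lower for 10.6% and higher for 13.3% in HCC4006, and for 17.5% and 16.8% in PC9. Of 25 tested genes of the integrated stress and amino acid response, 10 had a negative and 2 a positive interaction, 48% called, with a median of -0.14. Of these 25, 13 fell and 2 rose in HCC4006, and 7 fell and 3 rose in PC9. The 10 became 6 without HCC4006 CTRL DMSO replicate 2, and the 2 became 4 with libraries scaled to the same sum or the DMSO libraries fitted alone and 5 with array weights.

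Of 25 lysosome and autophagy genes 9 had a negative and 4 a positive interaction, 52% called. The 4, near the share over all genes, became 1 with median-of-ratios scaling and without HCC4006 CTRL DMSO replicate 1 or 3 or HCC4006 YAP1 KO DMSO replicate 3, and 2 without PC9 CTRL DMSO replicate 2 or PC9 YAP1 KO DMSO replicate 3. Of 30 type I interferon response genes 7 had a negative and 6 a positive interaction, 43.3% called. In HCC4006 6 of them rose and 11 fell, and in PC9 4 rose and 11 fell.

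Of 28 glycolysis and hypoxia genes 7 had a negative and 5 a positive interaction, 42.9% called beside 30% over all genes. The 5 lie near the 16.7% positive over all genes. In HCC4006 14 fell and 0 rose, beside 10.6% and 13.3% over all genes. In PC9 16 fell and 2 rose, beside 17.5% and 16.8%. The 5 became 8 with array weights or with the DMSO libraries fitted alone. The BCL2 family, which sets the threshold for apoptosis, had 2 positive and 1 negative interaction among 13 tested, 23.1% called. Hippo kinases and upstream regulators had 5 positive and 0 negative among 21, 23.8% called. For lists this small both shares lie near the 30% over all genes, of which 16.7% were positive and 13.3% negative.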
